A study of Mus musculus with 104 samples.

Results

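Primary mouse hepatocytes transfected with 1 nM of D1, a GalNAc-siRNA against Hao1, were compared with mock cells. The 4 libraries whose treatment label names D1 at 1 nM were set against the 8 libraries labelled mock. Beside the mock libraries the series held 96 libraries, from 6 siRNAs (named D1 to D6) that were each given at doses of 0.1, 1, 10 and 50 nM in 4 libraries, and RNA was taken 24 h after transfection with Lipofectamine RNAiMax. All groups used here are hepatocytes of that kind and time. D1 is the parent of D2 and D3, which share its guide sequence and carry glycol nucleic acid (GNA) cytidine and GNA-isocytidine, respectively, in place of the nucleotide at guide position 5. The labels do not say what the mock cells received, nor whether replicates came from separate cultures, so the p-values measure only the spread between these libraries. The D1 libraries held 4730824 to 4881710 gene counts and the mock libraries 3409963 to 5308584.

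An siRNA guide strand is loaded into an Argonaute protein, which cleaves a transcript that pairs with the guide along its length. The seed, the bases near the 5′ end of the guide, can by itself pair with sites in 3′-UTRs and lower transcripts moderately, as a microRNA does. Hao1 encodes glycolate oxidase, the peroxisomal enzyme of the liver that makes glyoxylate, a precursor of oxalate.

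The sequences that the results turn on are the target site, the guide and the sites that share the seed letters. The Hao1 site lies in the coding part of exon 8 at chr2:134340220-134340242 (GRCm39, minus strand). Sites are given in DNA letters as in the transcript, 5′ to 3′, and the capitals mark what pairs with guide positions 2 to 8, or those positions in the guide itself. In the sites of the mer8 genes below, the A opposite guide position 1 is in capitals as well. The Hao1 site also holds that A, shown in lower case.
Hao1 site: cagaatgtgaaagtcATCGACAa
D1 guide: uUGUCGAUgacuuucacauucug
A 3′-UTR that held ATCGACAA was called mer8 (guide positions 2 to 8 and an A opposite position 1), one that held ATCGACA was called mer7m8, and one that held TCGACAA was called mer7A1. Transcripts were searched on their own strand, each gene was counted under its strongest match only, and the longest annotated 3′-UTR was used. Of 20963 protein-coding genes with an annotated 3′-UTR, 0.396% were mer8, 1.16% mer7m8 and 0.844% mer7A1. Genes with an adjusted p under 0.05 are named called genes here. With D1 at 1 nM, 49 of the 11233 genes tested were called lower than mock (0.436%), of which 4 were mer8, and their sites are shown because they are the longest seed matches among the decreased genes.
Rnf115 chr3:96697501-96697523, plus strand: tacaggtggaattgtATCGACAA
Cog2 chr8:125278467-125278489, plus strand: atatggtaaaagtaaATCGACAA
Elovl6 chr3:129427173-129427195, plus strand: tcatcacgaaaaataATCGACAA
Ube4b chr4:149412899-149412921, minus strand: tcagttcccaacacaATCGACAA
For 7 decreased genes the match was mer7m8, and 5 of these sites are shown, those of Actg1 and Gda because these genes fell furthest and the others for comparison.
Actg1 chr11:120236667-120236689, minus strand: gttgggaacgtttgcATCGACAc
Gda chr19:21372003-21372025, minus strand: aaaacatgcttctagATCGACAt
Trappc10 chr10:78022909-78022931, minus strand: tattgtagctgtataATCGACAt
Vps35l chr7:118440661-118440683, plus strand: gacagcagaaggggaATCGACAg
Maea chr5:33529788-33529810, plus strand: cagaccccagcctgcATCGACAt

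Hao1 was silenced at this dose. Its level in the 4 D1 libraries was 4.18, 1.05, 2.46 and 3.18 CPM (counts scaled to the library total), from 5 to 20 counts, whereas mock libraries ranged from 27.8 to 38.98 CPM with a median of 33.9. All D1 libraries were below all mock libraries, and the log2 fold change was −3.62 (SE 0.177, adjusted p = 9.69e-20). The remaining level was 8.07% ± 3.91 of the mock mean (SD, n = 4), where D1 at 0.1, 10 and 50 nM left 36.7% ± 7.50, 6.399% ± 0.929 and 6.69% ± 5.98 (n = 4 each). Among the 13 measured genes of glyoxylate and oxalate metabolism, Hao1 was the 1 called gene, and the group median log2 fold change was −0.03, beside 0.00 over all genes tested. Agxt, which turns glyoxylate into glycine, had a log2 fold change of −0.28 (adjusted p = 0.767) and Grhpr, which reduces glyoxylate, of −0.15 (adjusted p = 0.675). Ttr and F12, the targets of other siRNAs of the study, had log2 fold changes of 0.09 (adjusted p = 0.653) and 0.10 (adjusted p = 0.727), and Gapdh of 0.01 (adjusted p = 0.960).

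The cells carried the markers of their label. Each of the 12 hepatocyte markers was detected at 1 CPM or more, with Alb highest at a mean of 13518 CPM over the 12 libraries, and their summed level was 19255 to 19939 CPM with D1 and 17000 to 19964 CPM in mock. Of 12 macrophage markers, 7 including Clec4f, Vsig4, Adgre1 and Marco were at 0 in all libraries, and Cd68 was the highest at 20.2 CPM. The stellate cell list was carried by Reln at 21.3 CPM, with Des and Pdgfrb at 0, and the endothelial list by Stab1 at 7.52 CPM. For cholangiocytes, whose list was led by Krt19 at 117 CPM, the sum was 210 to 227 CPM with D1 and 193 to 218 CPM in mock. The lymphocyte, neutrophil and red blood cell lists each summed to at most 9.05 CPM in any library. No marker of the 8 cell types was called in edgeR, and 6 of the 23 tested had an unadjusted p under 0.05. On the first principal component of 6985 genes (20.3% of variance) the D1 libraries lay at −4.75, −7.52, −3.48 and −3.44 and the mock libraries at −4.41 to 10.2. All D1 libraries were on the low side, with replicates 1 and 2 below the lowest mock library.

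Beyond the target, few transcripts changed, and most of those that did were lower. Of 11233 genes tested, 71 (0.632%) were called, with 49 lower and 22 higher (0.196%). The median log2 fold change was −0.42 among the lower genes and 0.31 among the higher, and 3 genes changed by more than 2-fold: Hao1, Actg1 and Tpm2. Over the alternative settings the smallest log2 fold change was 0.239 for Tpm2 and −0.945 for Actg1, both under 2-fold. All 4 D1 libraries lay below all 8 mock libraries for 74 genes (0.659%) and above them for 66 (0.588%), and 42 called genes were separated in this way, 30 lower and 12 higher. At an unadjusted p under 0.05 there were 1020 genes. The count rested in part on single libraries: it was 37 without D1 replicate 1 and 45 without D1 replicate 4, and 42 when all libraries of the siRNAs and doses shared 1 fit. Of the 71 genes, 24 were called whichever of the 12 libraries was left out, among them Hao1, Actg1, Gda, Cdh17, Ei24, Chmp1b, Dlg5, Ndufv1, Rnf115, Elovl6, Casc4, Mlph and Tmsb4x.

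**Figure D1:**
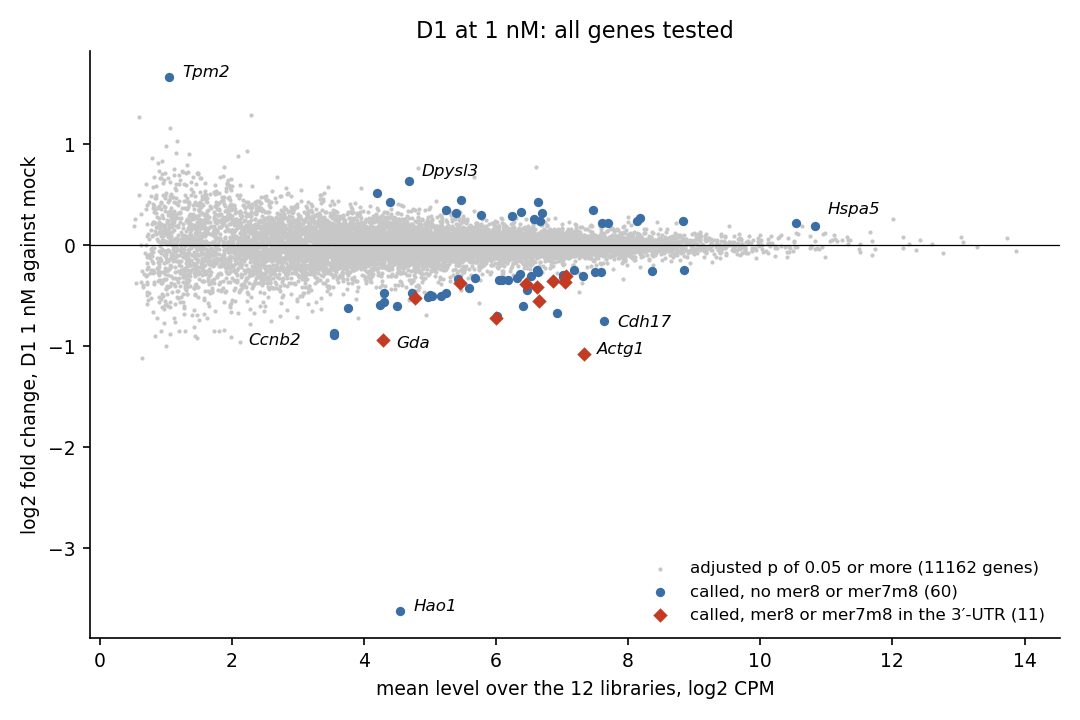
Each point is 1 of 11233 genes, placed by its mean level over the 12 libraries (x axis, log2 CPM) and its log2 fold change, D1 1 nM against mock (y axis). Hao1 stands alone at −3.62, and the called genes with a mer8 or mer7m8 site (red diamonds, 11 genes) all lie below 0.

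Transcripts with a seed match were among those that fell most. Actg1, the cytoplasmic gamma-actin, was at 99.4, 84.6, 90.2 and 94.6 CPM with D1 and at 178 to 211 CPM (median 196) in mock. The groups were far apart, and the log2 fold change was −1.08 (SE 0.0588, adjusted p = 1.75e-18). Actins are near-identical in their coding parts and only uniquely aligned reads were counted, so that this level is uncertain. Actb, the other cytoplasmic actin, differed by −0.03 (adjusted p = 0.890).

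Gda, guanine deaminase, was at 12.5, 12.4, 11.7 and 12.1 CPM with D1, below the mock libraries at 18.4 to 25.8 CPM (median 23.6). It fell by 0.94 on the log2 scale (SE 0.120, adjusted p = 7.81e-07). The 4 D1 libraries differed less among themselves than the 8 mock libraries did. Chmp1b, a subunit of the ESCRT-III membrane-scission machinery with a mer7m8 site, was at 46.2, 35.7, 46.0 and 51.3 CPM against 62.4 to 79.9 CPM (median 74.6). Replicate 2 was the lowest library, none reached the mock range, and the change was −0.72 (SE 0.0804, adjusted p = 4.47e-08).

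The mer8 genes with a call fell less than Actg1 and Gda. Rnf115, an E3 ubiquitin ligase, was at 74.6, 67.6, 81.4 and 83.6 CPM with D1 and at 101 to 128 CPM (median 113) in mock, with no overlap and a change of −0.55 (SE 0.0669, adjusted p = 2.20e-07). Elovl6, which elongates fatty acids and was the 1 called gene of 17 in the fatty acid synthesis list, was at 81.2, 89.0, 79.8 and 73.0 CPM against 103 to 118 CPM (median 105), a change of −0.42 (adjusted p = 4.16e-05). Both genes were below mock in every D1 library. Cog2, a subunit of the Golgi tethering complex COG, changed by −0.52 (adjusted p = 0.00975) with 1 D1 library inside the mock range, at 24.0 CPM against a lowest mock value of 22.5. Cog2 lost its call without D1 replicate 1 (adjusted p = 0.0929). Ube4b, a ubiquitin chain elongation factor, was at 85.4, 106, 98.6 and 103 CPM against 116 to 137 CPM (median 124), a change of −0.35 (adjusted p = 0.000752).

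The other called mer7m8 genes had smaller changes. Vps35l, a subunit of the endosomal retriever complex, changed by −0.37 (adjusted p = 7.04e-05), Trappc10, a subunit of a TRAPP tethering complex, by −0.38 (adjusted p = 0.000504) and Sec22b, a SNARE of the route from endoplasmic reticulum to Golgi, by −0.37 (adjusted p = 0.0148). Maea, a subunit of the CTLH ubiquitin ligase, changed by −0.30 (adjusted p = 0.00230). Vps35l, Trappc10 and Maea were lower in all 4 D1 libraries than in any mock library, while Sec22b had D1 libraries at 33.0 to 41.6 CPM and mock libraries at 41.0 to 53.3 CPM. The Sec22b call was lost without D1 replicate 1 (adjusted p = 0.120) or replicate 2 (adjusted p = 0.0771). It was also lost in a fit with the replicate number as a block on replicates 1 to 4 of both groups (adjusted p = 0.155). In Dlg5, a scaffold protein of cell junctions (−0.71, adjusted p = 2.78e-08), and Mex3c, an RNA-binding ubiquitin ligase (−0.31, adjusted p = 0.00230), ATCGACA was found in the 3′-UTR of the canonical transcript but not in the longest one, and Dlg5 also held it at 2 places in its coding sequence.

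**Figure D2:**
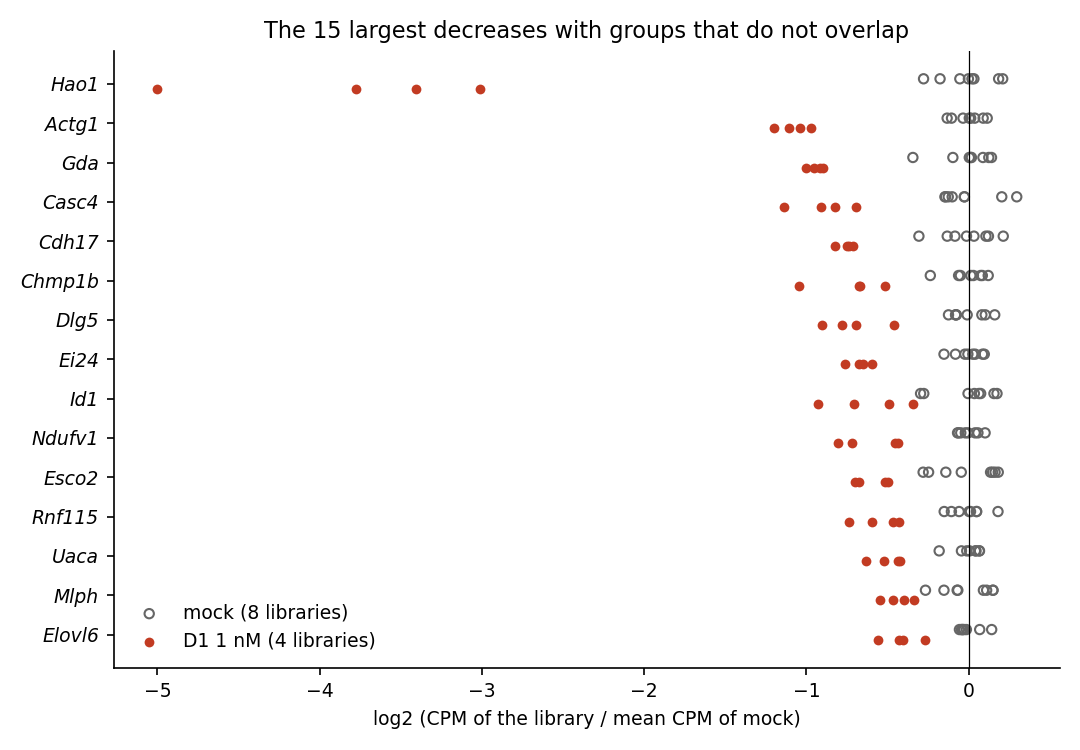
The 15 called genes with the largest decrease among those whose groups do not overlap, with each library's CPM divided by the mean of the 8 mock libraries on a log2 scale (x axis); filled points are the 4 D1 1 nM libraries and open circles the 8 mock libraries. For every gene the filled points lie to the left of all open circles, and Hao1 is the gene lowered furthest.

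Over all genes, a seed match in the 3′-UTR went with a lower log2 fold change. Leaving out Hao1, 10637 tested genes had a 3′-UTR. Of the 41 mer8 genes (0.385% of them), 4 were called lower (9.76%) and none higher, 68.3% lay below 0, and the median log2 fold change was −0.09. This median was −0.05 with sequencing run 1 alone, and the median of mer8 genes relative to genes without a match, −0.0965 on the log2 CPM scale, was −0.164 with canonical 3′-UTRs. Among the 157 mer7m8 genes, 7 were called lower (4.46%) and none higher, 64.3% lay below 0, and the median was −0.04. The mer7A1 genes (0.978% of them) had a median of −0.01 with 1 called gene, Ghr, the growth hormone receptor (−0.30, adjusted p = 0.00366). In the 10335 genes without a match the median was 0.00, with 36 called lower (0.348%) and 21 higher. Leaving out any 1 library gave 3 to 4 called mer8 genes and 6 to 9 called mer7m8 genes. A match to the seed of the passenger strand (TCACATT, with or without a following A) was held by 442 mer8 and 1533 mer7m8 genes, with medians of 0.01 and 0.01, 1 mer8 gene called lower and none higher, and 1 mer7m8 gene called lower and 3 higher. A further 713 genes held ATCGACA in the coding sequence and had no mer8 or mer7m8 match in the longest 3′-UTR. Of these, 6 were called lower (0.842%, beside 0.451% of all genes with a 3′-UTR) and none higher, and their median was −0.00.

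Read library by library, the mean log2 CPM of the mer7m8 genes relative to genes without a match was −0.0634 to −0.0462 in the D1 libraries and −0.00263 to 0.0304 in mock, with no overlap. For mer8 genes these values were −0.126 to −0.0541 with D1 and −0.0666 to 0.0596 in mock, so that the groups overlapped. The D2 1 nM libraries lay at −0.0567 to 0.0394 for mer8 and the D3 1 nM libraries at −0.00238 to 0.0407, while D1 at 10 nM reached −0.254 to −0.187.

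**Figure D3:**
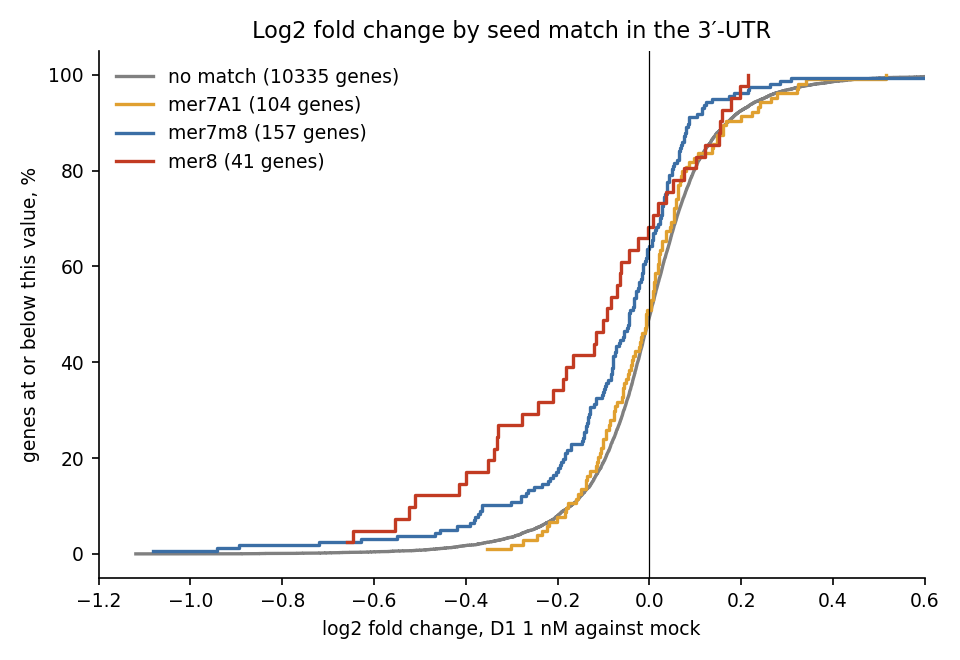
Cumulative share of genes (y axis, percent) at or below each log2 fold change, D1 1 nM against mock (x axis), for 4 classes of seed match in the 3′-UTR. The mer8 curve (41 genes, median −0.09) and the mer7m8 curve (157 genes, median −0.04) run to the left of the curve without a match, while the mer7A1 curve (median −0.01) runs along it.

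Other decreased transcripts had no seed match in the 3′-UTR, and some of them paired with the guide over a longer stretch. For each gene the best ungapped window opposite guide positions 2 to 18 was taken, and 10 tested genes other than Hao1 matched 15 or 16 of these 17 positions. Of these 10 genes, 2 were called lower (20%, beside 0.451% of all genes with a 3′-UTR) and none higher. The windows of Hao1, of 3 of these genes and of 2 genes with 13 positions paired are shown in 5′ to 3′ transcript orientation with the bases that pair with the guide in capitals.
Hao1 chr2:134340221-134340237, minus strand: TGTGAAAGTCATCGACA
Rif1 chr2:51993521-51993537, plus strand: TGTGAAAGTCATCGAtA
Ccnb2 chr9:70316579-70316595, minus strand: TGTGAAAGTCAatGACA
Cdh17 chr4:11785187-11785203, plus strand: TGTGAAAGTtATtGACA
Atp5j chr16:84624860-84624876, minus strand: atTtgAAGTCATCGACA
Ndufv1 chr19:4058105-4058121, minus strand: TGTGAAAGcCATCGctc
All of them lie in coding sequence, that of Rif1 in exon 22, of Ccnb2 in exon 8 and of Cdh17 in exon 9. Cdh17, the liver-intestine cadherin, was at 141, 138, 137 and 130 CPM with D1 and at 186 to 267 CPM (median 232) in mock. All D1 libraries were lower, and the change was −0.76 (SE 0.0719, adjusted p = 1.04e-07). Ccnb2, the mitotic cyclin B2, was at 6.68, 8.82, 7.37 and 7.42 CPM against 8.11 to 21.1 CPM (median 13.8), a change of −0.87 (adjusted p = 0.00705). The Ccnb2 groups overlapped by 1 D1 library, replicate 2. Its call was lost in 5 of 20 settings, among them without D1 replicate 1 (adjusted p = 0.0586) and with the replicate number as a block (adjusted p = 0.0572). Rif1, a regulator of replication timing and DNA repair with 16 of 17 positions paired, was not called at 1 nM (−0.23, adjusted p = 0.231). The other genes with 15 positions paired included Dnase1l1 (−0.36, adjusted p = 0.213), Snrk (−0.28, adjusted p = 0.393) and Mark2 (0.00, adjusted p = 0.996).

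With 13 of 17 positions paired, 642 genes had a median log2 fold change of 0.01, and 7 were called lower (1.09%, beside 0.451% of all genes with a 3′-UTR) and none higher. Among them, Trappc10 and Vps35l were already counted as mer7m8 and Ghr as mer7A1. With 12 positions paired, 10 of 3356 genes were called lower (0.298%) and 9 higher. With 14 positions paired, none of 68 genes was called in edgeR and 9 had an unadjusted p under 0.05. Ndufv1, a core subunit of respiratory complex I, was at 55.1, 58.4, 70.2 and 71.3 CPM with D1, below the mock range of 91.7 to 103 CPM (median 95.4), a change of −0.60 (SE 0.0682, adjusted p = 6.31e-08). Atp5j, a subunit of the ATP synthase, holds the full seed match in its coding sequence and changed by −0.30 (adjusted p = 0.00975), a call that was lost without D1 replicate 1 or 3 (adjusted p of up to 0.0738) and in a fit with the replicate number as a block on replicates 1 to 4 of both groups (adjusted p = 0.131). Rpl5, a ribosomal protein gene, changed by −0.25 (adjusted p = 0.00318), and counts of ribosomal protein genes are uncertain because of their near-identical copies.

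A further set of decreased genes had neither a 3′-UTR seed match nor more than 11 positions paired. Ei24, an endoplasmic reticulum membrane protein and p53-induced gene, was at 81.5, 87.7, 91.5 and 86.5 CPM with D1 and at 124 to 148 CPM (median 139) in mock. No D1 library came near the mock range, and Ei24 fell by 0.67 on the log2 scale (SE 0.0590, adjusted p = 3.64e-11). It was the 1 called gene of 19 p53 targets, whose median was 0.00. Casc4, a Golgi membrane protein also named Golm2, was at 8.56, 6.30, 7.37 and 7.85 CPM against 12.5 to 17.03 CPM (median 13.3), a change of −0.89 (adjusted p = 0.000420). Its 3′-UTR held a mer8 match to the passenger strand. Mlph, a Rab27 effector (−0.44, adjusted p = 0.000234), Uaca (−0.50, adjusted p = 0.00109), the cohesin acetyltransferase gene Esco2 (−0.59, adjusted p = 0.00606) and Id1, an inhibitor of helix-loop-helix factors (−0.60, adjusted p = 0.00366), were likewise lower in every D1 library than in any mock library. The Id1 call was lost without D1 replicate 3 (adjusted p = 0.0602) and that of Esco2 without replicate 1 (adjusted p = 0.0512). Uaca was called in 19 of 20 settings, and the lost call was not in a fit that left out a library.

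Cell cycle genes lay below 0, although few of them passed the test. Of 20 listed genes, 4 fell (0.436% of all genes were called lower), none rose and all 20 had a log2 fold change below 0, with a median of −0.27 against 0.00 over all genes. The summed level of the list was 1451, 1535, 1416 and 1316 CPM in the D1 libraries and 1545 to 1952 CPM (median 1648) in mock. All D1 libraries were below all mock libraries, by a narrow margin for replicate 2. The called genes were Cdk1, the mitotic kinase (−0.42, adjusted p = 0.0203), Aurka, a spindle kinase (−0.48, adjusted p = 0.0203), Rrm2, a ribonucleotide reductase subunit (−0.34, adjusted p = 0.0231), and Mcm6, part of the replicative helicase (−0.27, adjusted p = 0.0222). Ccna2 (−0.57, adjusted p = 0.162), Ccnb1 (−0.56, adjusted p = 0.0678) and Mki67 (−0.37, adjusted p = 0.404) were not called. Among called genes outside the list, named after their values were seen, Birc5, Ube2c, Nek2, Pbk, Foxm1, Prc1, Ect2, Smc4 and Ckap2l act in mitosis, and their changes ranged from −0.62 for Pbk to −0.27 for Smc4. Each of these genes lost its call without at least 1 of the 12 libraries, from 1 such fit for Birc5 to 10 for Smc4. Ccnb2 (−0.87), described above for its pairing with the guide, is a further called mitotic gene outside the list. Ect2 also had 13 of 17 positions paired, in its 3′-UTR. Whether Ccnb2 and Ect2 fell through this pairing or together with the other mitotic genes was not tested and cannot be told apart here. The called genes of the list numbered 0 without D1 replicate 1, 0 without D1 replicate 4, 1 without D1 replicate 2, 2 without replicate 3, 1 without mock replicate 7, and 0 when all libraries shared 1 fit, with medians of −0.30 to −0.24 throughout the leave-one-out fits. Against the same mock libraries the list median was −0.08 with D1 at 0.1 nM, −0.79 at 10 nM, −0.12 with D2 at 1 nM and −0.05 with D3 at 1 nM. With the siRNAs against Ttr at 1 nM it was −0.09 for D4, −0.06 for D5 and −0.27 for D6, so that a median as low as that of D1 was also seen with an siRNA against another gene.

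A few genes of the stress response of the endoplasmic reticulum were called higher, with small changes. Of 19 listed genes of the unfolded protein and integrated stress response, 3 rose (0.196% of all genes were called higher), none fell and 18 lay above 0, with a median of 0.14. Hspa5, the chaperone BiP, was at 2064, 2053, 1846 and 1949 CPM with D1 and at 1616 to 1999 CPM (median 1703) in mock, a change of 0.19 (adjusted p = 0.0462). Its groups overlapped. It lost its call without D1 replicate 1, 2 or 4 and without 6 of the mock replicates. Hsp90b1, the chaperone GRP94, was at 1769, 1637, 1575 and 1581 CPM, above the mock range of 1252 to 1509 CPM, a change of 0.22 (adjusted p = 0.0130), with no call without D1 replicate 1 (adjusted p = 0.176) or 2 (adjusted p = 0.0587). Creld2, an endoplasmic reticulum protein induced by misfolded protein, rose by 0.32 (adjusted p = 0.00677). The Creld2 call was lost without D1 replicate 1 (adjusted p = 0.0595) and with the replicate number as a block (adjusted p = 0.0518). Ddit3 (0.36, adjusted p = 0.0678), Atf3 (0.25, adjusted p = 0.204) and Xbp1 (0.06, adjusted p = 0.804), transcription factors of the response, were not called. The summed list was 7573, 7365, 6936 and 7160 CPM with D1 and 6168 to 7019 CPM in mock, so that replicate 3 lay inside the mock range. Hyou1, Sel1l, Syvn1 and Erlin2, which act in folding or degradation of proteins of the endoplasmic reticulum, also rose, by 0.21, 0.22, 0.29 and 0.24, and all but Erlin2 were picked after their values were seen. Hyou1 lost its call in 5 of the 12 fits that left out 1 library, Sel1l in 4, Syvn1 in 3 and Erlin2 in 7. With the replicate block, Hyou1 (adjusted p = 0.112), Sel1l (adjusted p = 0.126) and Syvn1 (adjusted p = 0.0769) lost their calls, and Erlin2 kept its call (adjusted p = 0.0209). The called genes of the list numbered 0 without D1 replicate 1, 1 without D1 replicate 2, 2 without D1 replicate 4 or without any of 5 mock replicates, and 0 when all libraries shared 1 fit.

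**Figure D4:**
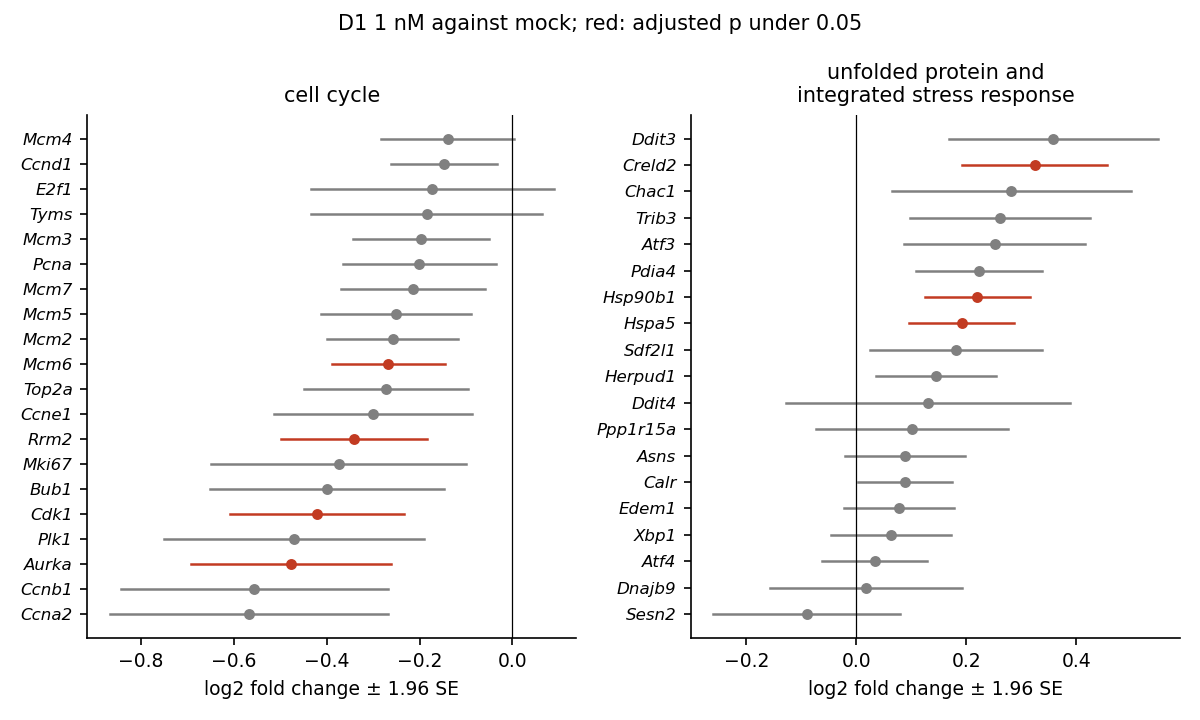
Log2 fold change ± 1.96 SE, D1 1 nM against mock (x axis), for the 20 tested cell cycle genes (left) and the 19 tested genes of the unfolded protein and integrated stress response (right); red marks an adjusted p under 0.05. All 20 cell cycle genes lie below 0, 4 of them called, and 18 of the 19 stress genes lie above 0, 3 of them called.

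The increased genes outside these lists were of mixed function, and most of their changes were small. Tpm2, a tropomyosin, rose by 1.66 on the log2 scale (adjusted p = 0.00575) from a low level, at 2.72, 3.57, 3.89 and 5.09 CPM with D1 and at 0 to 1.91 CPM (median 1.27) in mock, and its call was lost without D1 replicate 4 (adjusted p = 0.0708). Gpr137b, a lysosomal membrane protein (0.45, adjusted p = 0.00109), Ggh, gamma-glutamyl hydrolase (0.43, adjusted p = 0.0457), Tmsb4x, the actin-sequestering thymosin beta 4 (0.43, adjusted p = 0.00118), and Cldn4, a tight junction protein (0.35, adjusted p = 0.00606), were above mock in all D1 libraries. The same held for Creb5 (0.32, adjusted p = 0.00342), Col4a2, a chain of basement membrane collagen (0.27, adjusted p = 0.00342), Ptpn13 (0.26, adjusted p = 0.0322) and the gene with the identifier ENSMUSG00000095041 (0.35, adjusted p = 0.0462). Col4a1 rose by 0.24 (adjusted p = 0.00802), and because the annotated loci of Col4a1 and Col4a2 overlap and the strand setting of the counting is not given in the sources used here, their reads may not be fully separable. Dpysl3, picked after its values were seen, rose by 0.589 to 0.746 over the fits that left out 1 library and was called in 19 of 20 settings. Of the increased genes named in this paragraph, Gpr137b, Tmsb4x and Dpysl3 were called whichever library was left out. Gpr137b lost its call with sequencing run 2 alone (adjusted p = 0.0640) and when all libraries shared 1 fit (adjusted p = 0.212). Without D1 replicate 1 the calls of Cldn4 (adjusted p = 0.0524), Creb5 (adjusted p = 0.0595) and Col4a1 were lost, without replicate 4 also that of Col4a1 (adjusted p of up to 0.0765), and without replicate 2 that of Col4a2 (adjusted p = 0.0771), while those of Ggh, Ptpn13 and ENSMUSG00000095041 were each lost on leaving out any of several libraries. In the cytoskeleton list of 30 genes, Actg1 fell, Tmsb4x rose and the median was −0.03.

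Of 22 gene lists with 434 tested members, 13 members were called and 15 lists held none. With 0.632% of all genes called, a list of this size without a call is no result about its pathway. Over the 294 tested members of those 15 lists, edgeR called none and 33 had an unadjusted p under 0.05. DESeq2 called 1 member, an interferon response gene, edgeR called 4 without the count filter, all in the interferon response list, and 6 with the replicate block (2 acute phase genes and 1 each of the secreted plasma protein, lysosome and hypoxia lists higher, and 1 interferon response gene lower), and 0 to 3 members were called when 1 library was left out. Interferon response genes had a median of −0.11 over 38 genes, with Bst2 at −0.23 (adjusted p = 0.443) and Irgm1 at −0.11 (adjusted p = 0.675). That median was −0.209 without D1 replicate 2 and −0.0368 without D1 replicate 3. Their summed level was 1826 to 2659 CPM with D1 and 2004 to 2865 CPM in mock, so that the groups overlapped. Among 29 secreted plasma proteins the median was 0.04, with Alb at 0.07 (adjusted p = 0.675) and Apob at 0.13 (adjusted p = 0.750). The 22 genes of RNA interference and mRNA decay had a median of −0.00, and Ago2, the Argonaute that cleaves targets, was at 0.03 (adjusted p = 0.891) and Cnot1, the scaffold of the deadenylase complex, at −0.02 (adjusted p = 0.937). Of 23 drug-metabolising cytochrome P450 genes and their regulators, Cyp2c70 fell, by 0.25 (adjusted p = 0.0396), and that call was lost without D1 replicate 2, 3 or 4 and without 5 of the mock replicates. None of the members of the lists for acute phase and inflammation (22 tested), Nrf2 targets (21), cholesterol synthesis (21), fatty acid oxidation (22), bile acids (12), glucose metabolism (19), urea cycle and amino acid breakdown (21), immediate early genes (16), lysosome (20), circadian clock (13), hypoxia (12) or metallothionein (6) was called. Their medians lay between −0.05 for cholesterol synthesis and 0.08 for hypoxia.

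The comparison with D2 and D3 at the same dose addressed what the change at guide position 5 did to the transcripts lowered by the parent. Hao1 was low with all 3 siRNAs, and Actg1, Casc4 and Gda were among the genes that differed most between the parent and either modified siRNA. These comparisons used the same 4 D1 libraries as the comparison with mock, and no mock library. Of the 48 genes besides Hao1 that were called lower than mock, 21 were called lower than D2 (median difference −0.33) and 23 lower than D3 (median −0.35), none was called higher than either, and the rest did not pass the test. Of the 22 genes called higher than mock, 2 were called higher than D2 and 6 higher than D3. These genes were chosen on the same D1 libraries, so the direction of their differences is no independent evidence. Hao1 remained at 6.06% ± 2.58 of the mock mean with D2 and at 6.01% ± 0.667 with D3 (SD, n = 4 each). D1 differed from D2 by 0.41 on the log2 scale (95% interval −0.34 to 1.15, adjusted p = 0.842) and from D3 by 0.42 (95% interval −0.30 to 1.14, adjusted p = 0.685), so that a difference in Hao1 was not detectable at 5 to 20 counts, and intervals of this width do not show equal silencing.

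Against D2, 51 of 11100 genes were called (0.459%), with 33 lower in D1 (0.297%) and 18 higher (0.162%). Actg1 was at 193 to 212 CPM in the D2 libraries and differed by −1.11 (adjusted p = 1.80e-16), and Gda was at 21.4 to 24.1 CPM and differed by −0.93 (adjusted p = 2.28e-05). Casc4 differed by −1.02 (adjusted p = 0.000390), Cdh17 by −0.82 (adjusted p = 1.83e-13) and Ccnb2 by −0.84 (adjusted p = 0.0134). Camk2n1, an inhibitor of CaMKII, was at 4.59, 5.67, 5.31 and 5.26 CPM with D1 and at 12.2, 9.90, 10.7 and 6.65 CPM with D2, a difference of −0.92 (adjusted p = 0.0278). Camk2n1 is a mer8 gene. Against mock it was not called (−0.65, adjusted p = 0.0940), although all D1 libraries lay below all mock libraries. Prune2 was the clearest gene in the other direction, at 72.7, 67.0, 59.4 and 70.5 CPM with D1 and at 32.0 to 36.2 CPM with D2 (0.96, adjusted p = 3.87e-10). Prss23 (0.89, adjusted p = 0.00416), Efnb2 (0.55, adjusted p = 0.0127) and Creld2 (0.42, adjusted p = 0.000287) were also higher with D1, as was Gm45250 (1.31, adjusted p = 0.0329). Of these genes and Prune2, only Creld2 was among the 71 genes called for D1 against mock. With D2 at 1 nM the 1 gene called against mock was Hao1. The differences in the other genes therefore cannot be assigned to either siRNA. None of the 20 cell cycle genes was called against D2 in edgeR, 6 had an unadjusted p under 0.05, and their median was −0.17. The stress list had 3 genes higher with D1 and none lower, with a median of 0.13. The count of called genes was 24 without D1 replicate 1, 29 and 31 without D2 replicates 3 and 4, 107 without D2 replicate 1, and 19 when all libraries shared 1 fit.

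Against D3, 158 of 11055 genes were called (1.43%), 87 lower in D1 (0.787%) and 71 higher (0.642%). Actg1 differed by −1.04 (adjusted p = 1.09e-12), Casc4 by −0.95 (adjusted p = 0.00424), Gda by −0.89 (adjusted p = 0.000910), Dlg5 by −0.67 (adjusted p = 4.10e-05) and Cdh17 by −0.50 (adjusted p = 4.10e-05). Elovl6, which differed from D2 by −0.42 (adjusted p = 0.000323), differed from D3 by −0.14 (adjusted p = 0.489). The 3 largest decreases were in genes at low level, Ap3m2 (−1.38, adjusted p = 0.0171), Gm4117 (−1.15, adjusted p = 0.0310) and Paqr4 (−1.06, adjusted p = 0.0146). Higher with D1 were Nes, the intermediate filament protein nestin (0.68, adjusted p = 0.0115), Kitl, the ligand of the receptor Kit (0.62, adjusted p = 0.00880), Reln (0.53, adjusted p = 0.0348), Dbt, a subunit of the branched-chain keto acid dehydrogenase (0.51, adjusted p = 0.000747), and Pwwp3b (0.51, adjusted p = 0.0261). Of these genes higher with D1, only Nes was among the 71 genes called for D1 against mock, and with D3 at 1 nM 46 genes were called against mock. The stress list had 5 genes higher with D1 and none lower, and the cell cycle list 1 gene lower. This count also rested on single libraries, being 38 without D1 replicate 1, 45 without D1 replicate 3, 67 without D1 replicate 4 and 99 without D3 replicate 4, and it was 48 when all libraries shared 1 fit.

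Between 1 and 10 nM D1, 913 genes differed while Hao1 did not pass the test. The comparison again used the same 4 libraries of D1 at 1 nM. Hao1 was at 2.21, 2.36, 2.33 and 1.69 CPM at 10 nM, within the range of the 1 nM libraries, and was 0.34 higher at 1 nM on the log2 scale (95% interval −0.39 to 1.06, adjusted p = 0.668). Of 11087 genes, 8.23% were called, 376 lower at 1 nM (3.39%) and 537 higher (4.84%). Cdh17 was at 41.6, 40.4, 36.7 and 32.7 CPM at 10 nM, well below its level at 1 nM, a difference of 1.85 (adjusted p = 7.43e-14). Ccnb2 differed by 1.81 (adjusted p = 0.000879), Cdc25b, a phosphatase that activates mitotic kinases, by 1.64 (adjusted p = 0.00265), and Rif1, which was not called against mock at 1 nM, by 0.96 (adjusted p = 0.000483). Maea was at 57.6, 46.4, 47.0 and 43.8 CPM at 10 nM and differed by 1.26 (adjusted p = 4.62e-10). Actg1 differed by 0.84 (adjusted p = 4.78e-07) and Gda by 0.62 (adjusted p = 0.0416), and differences between genes in this step were not tested.

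Of the 20 cell cycle genes, 13 were higher at 1 nM than at 10 nM and none lower, with a median of 0.49. The stress list had 1 gene lower and none higher, with a median of −0.03. A further 4 lists had 5 or more genes lower at 1 nM. Drug-metabolising cytochrome P450 genes had 9 of 23 lower and 1 higher (median −0.43), acute phase and inflammation genes 8 of 22 lower and 1 higher (median −0.23), secreted plasma proteins 7 of 29 lower and none higher (median −0.16) and interferon response genes 5 of 38 lower and none higher (median −0.16). In each of the remaining 16 lists at most 4 genes were called in either direction. Some of these lists are short: metallothionein had 3 of 6 genes lower and 1 higher, and the circadian clock 4 of 13 lower and 2 higher. Over all genes, 3.39% were called lower at 1 nM and 4.84% higher. Ttr, a transport protein of plasma that is not a target of D1, was at 695, 694, 681 and 750 CPM at 1 nM and at 970, 1010, 988 and 1108 CPM at 10 nM, with no overlap and a difference of −0.53 (adjusted p = 3.40e-06). Col4a1 (−0.63, adjusted p = 1.24e-07) and Tmsb4x (−0.48, adjusted p = 0.000104), which were higher than mock at 1 nM, were lower at 1 nM than at 10 nM. The chemokine Ccl7 was at 9.88 CPM or less at 1 nM and at 22.7 to 30.8 CPM at 10 nM (−1.74, adjusted p = 1.75e-06). Without D1 1 nM replicate 1 the count of called genes was 593, and without replicate 3 it was 560.

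**Figure D5:**
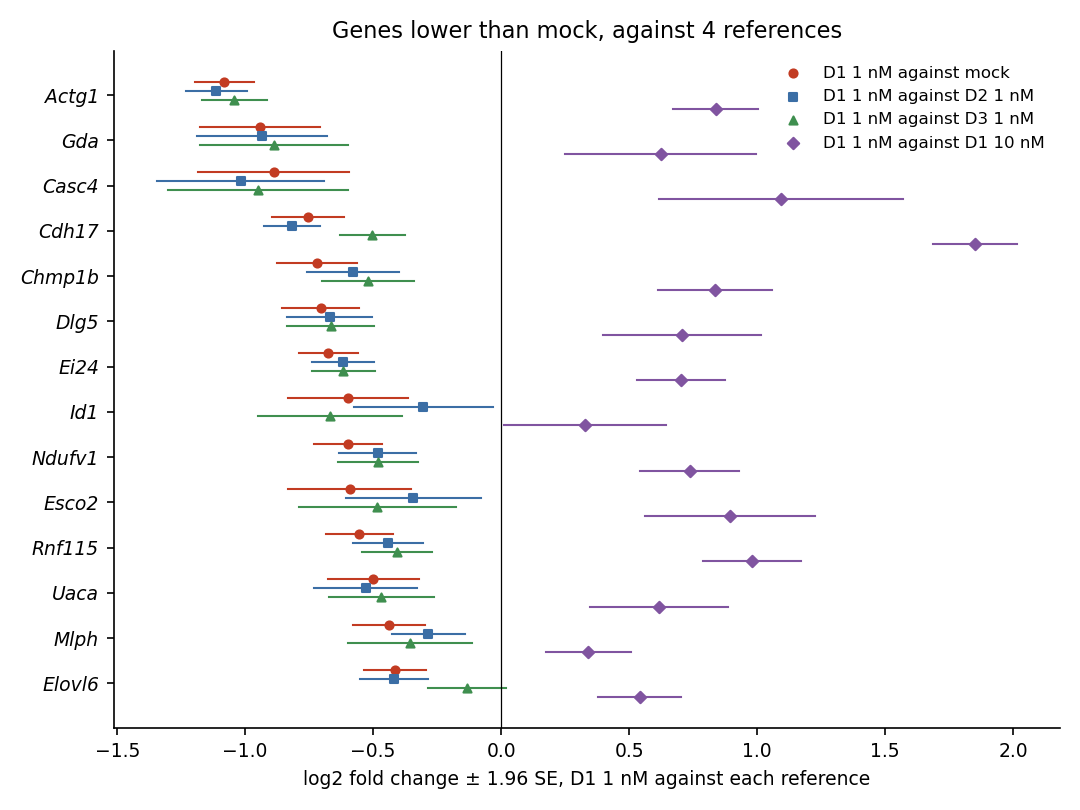
Log2 fold change ± 1.96 SE of D1 1 nM (x axis) for the genes other than Hao1 with the largest decreases, against mock, D2 1 nM, D3 1 nM and D1 10 nM. Actg1 lies at −1.08, −1.11, −1.04 and 0.84, and all points against D1 10 nM lie to the right of 0; the 4 comparisons share the D1 1 nM libraries.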

How the data were processed

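Reads came from libraries made with the TruSeq Stranded Total RNA kit from bead-captured RNA and run on a NextSeq500. The authors filtered reads with fastq-mcf (mean quality of at least 28, length of at least 36), aligned them to GRCm39 with STAR (version not given in the sources used here) and ran featureCounts 2.0.2 on reads with 1 alignment and a mapping quality of at least 10; the deposited values are these raw counts, unnormalized, in 2 sequencing runs per library. The deposited DESeq2 1.32.0 tables hold the authors' fold changes and p-values, which were not used here; only their gene symbols were (52340 of 55416 genes).

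Both runs of each library were added up. Over genes the runs differed with a chi-square per degree of freedom of 1.01 to 1.04 in the D1 1 nM and mock libraries. Between replicates of a group it was 1.68 (mock replicates 1 and 2) to 5.915 (mock replicates 2 and 4). The mock libraries were thus not equally alike, while the test took them as independent. The 92 ERCC spike-ins (0.453% to 0.790% of counts) were left out. The test was edgeR 4.0.16 under R 4.3.3 (TMM, filterByExpr, robust glmQLFit, glmQLFTest), run on the groups compared only, with Benjamini-Hochberg adjustment over all genes tested and a threshold of 0.05. Every adjusted p in the text is from that test, on the groups compared unless another fit is named beside it, and the code was tested on simulated data. CPM are TMM-scaled. Intervals are 1.96 SE. Few counts limit the precision for silenced or low genes, and errors cover these libraries only. UTRs, exons and coordinates come from GENCODE vM39 on GRCm39.

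Genes named were Hao1, Ttr, F12 and Gapdh, the 15 largest decreases and 10 largest increases among called genes with separated groups, called genes with a mer8 or mer7m8 site, called list members, and the 5 largest calls each way in the direct comparisons; others are said to be chosen after their values were seen or stand for comparison. The comparison, the gene lists and the genes were chosen with earlier results of these data known. Alternatives were DESeq2 1.42.0, RLE size factors, no count filter, each run alone, all libraries in 1 fit, a replicate block, the canonical 3′-UTR, and each replicate left out.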

Additional observations from a re-analysis of the deposited data

Results flagged for a closer look

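In 12 of 192 groups of libraries the highest or lowest value stood apart from the rest of its group, and chance alone is expected to mark about 1 in 20. Among D1 1 nM libraries, the highest Ttr value was 755 CPM (next 695), the lowest Efnb2 value 25.8 CPM (next 29.5), the highest Paqr4 value 5.85 CPM (next 3.79), and the lowest relative level of mer8 genes −0.126 (next −0.0651). Among mock libraries, the lowest values of Uaca (31.9 CPM, next 35.1), Col4a2 (236 CPM, next 266) and ENSMUSG00000095041 (27.1 CPM, next 33.0) stood apart, as did the highest of Hspa5 (1999 CPM, next 1790) and the lowest summed level of the fatty acid synthesis list (3469 CPM, next 3827). In the D2 1 nM libraries these were the highest Actg1 value (212 CPM, next 195) and the lowest Prss23 value (6.19 CPM, next 11.7), and in the D3 1 nM libraries the lowest Pwwp3b value (17.7 CPM, next 23.4).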

How the results depend on the processing

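Every called gene followed through the alternatives kept its direction, but the number of genes called and the size of some changes moved. For single genes the smallest log2 fold change over the settings was 0.239 for Tpm2, −0.316 for Ccnb2, −0.414 for Casc4 and −0.551 for Gda. Each was smaller in size than in the main fit. Against mock the 71 called genes became 143 with every gene of at least 1 count tested, 40 with run 2 alone and 42 with all libraries in 1 fit; against D2 the 51 became 95 without the count filter and 19 in 1 fit; against D3 the 158 became 274 without the filter, 103 and 89 with runs 1 and 2 alone and 48 in 1 fit; against D1 10 nM the 913 became 597 with run 2 alone. DESeq2 gave 77, 45, 130 and 783 with betaPrior. Leaving out 1 library gave 37 to 84 against mock, 24 to 107 against D2, 38 to 195 against D3 and 560 to 919 against D1 10 nM, and Hao1 at −3.91 to −3.36 against mock. Hao1 was at −1.51 with DESeq2 and betaPrior, which shrinks fold changes. Gapdh, which was not called, lay between −0.0042 and 0.0347 over the leave-one-out fits, with −0.0019 without D1 replicate 3 and −0.0042 without D1 replicate 4. The median of mer8 genes relative to genes without a match was −0.0965, −0.113 to −0.0860 over the leave-one-out fits, and −0.164 with canonical 3′-UTRs; the cause was not tested. A replicate block gave 118 calls against mock, where it also left out mock replicates 5 to 8, and 141 against D2, with the other 2 counts within 1.5 times the unblocked ones, and 55 of the 71 genes kept their call. The labels link replicates only by a number. Same-numbered D1 and mock libraries correlated at −0.0747, 0.163, 0.181 and 0.0858. With D2 these values were 0.186, 0.241, 0.0853 and 0.0217, and with D3 0.102, −0.00358, −0.236 and −0.0275. With D1 at 10 nM they were 0.178, 0.0717, −0.0829 and 0.142. Not every library correlated best with its own number in any of these comparisons, and whether replicates were paired is not known. Of the 71 genes, 21 were called under all 20 settings against mock. Depth limits low genes and silenced Hao1 most.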
